A study of Saccharomyces cerevisiae BY4741 with 6 samples.

Results

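The genes described here carry sulfur between cysteine, homocysteine, methionine and S-adenosylmethionine in the yeast *Saccharomyces cerevisiae*. They are 10 of the 5449 genes that the arrays name, taken by symbol as *MET2*, *STR2*, *STR3*, *CYS4*, *CYS3*, *MET6*, *SAM1*, *SAM2*, *MHT1* and *SAM4*, and each of the 10 has 1 probe set. Their transcripts were measured with Affymetrix Yeast Genome 2.0 arrays in 3 untreated cultures and in 3 cultures treated with neomycin sulfate at 10 mg/mL, all kept for 4 h at 30 °C in YPD, a rich medium. Neomycin is an aminoglycoside antibiotic, and the arrays addressed how it changes the transcriptional profile. All 6 cultures were of BY4741, a laboratory haploid of mating type a with the genotype *his3Δ1 leu2Δ0 met15Δ0 ura3Δ0*. *MET15* is another name of *MET17*, so treated and untreated cells alike lacked this gene, and no strain that carries it was measured. Its part in the values below was not tested.

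Yeast makes homocysteine from either sulfide or cysteine. Met17 joins sulfide to O-acetylhomoserine, the product of Met2, and a cell without Met17 generally depends on sulfur that reaches it in organic form. In transsulfuration, Str2 and Str3 convert cysteine through cystathionine to homocysteine, while Cys4 and Cys3 run from homocysteine through cystathionine to cysteine. Met6 methylates homocysteine to methionine, Sam1 and Sam2 turn methionine into S-adenosylmethionine, the methyl donor of most cellular methylations, and Mht1 and Sam4 return methionine by methylating homocysteine.

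The values are GCRMA signals on the log2 scale, on which a difference of 1 is a doubling, and n is 3 arrays per condition throughout. *LEU2*, *MET17* and *URA3*, which the strain lacks, gave means over the 6 arrays of at most 4.68. This highest mean, that of *LEU2*, serves as a rough mark of background. *MET17* itself read 3.43 to 3.84 without and 3.60 to 3.82 with neomycin, so background differed between probe sets. *HIS3*, which carries a smaller lesion, read 10.23 to 10.66. Of the markers of mating type, *MFA1*, *MFA2*, *STE2*, *BAR1* and *STE6* of a cells read 10.65 or more on every array, while of those of α cells *MF(ALPHA)1* stayed under the mark on every array and *STE3*, *MF(ALPHA)2* and *SAG1* read 5.05 to 8.59. Neomycin replicate 1 stood apart from the other treated cultures, with weaker responses. Taking the 100 genes that the other treated cultures moved most, replicate 1 showed a median of 0.494 of their change, where replicates 2 and 3, treated in this way, showed 0.968 and 1.13. For the genes named in the results, values without it are given where leaving it out changed a call or where the value rests on it. Replicate 1 was singled out for its weak responses, so leaving it out tends to enlarge changes and calls. Over all genes the limma calls went from 28 to 142. Values without it therefore add no support of their own.

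Of the 10 genes, *STR3*, the cystathionine beta-lyase, rose with neomycin in the test over all genes, 7.27-fold. *MET2*, the homoserine acetyltransferase, *MET6*, the methionine synthase, and *SAM2*, an S-adenosylmethionine synthetase, had ratios of 2.49, 1.80 and 1.49 and were higher on every treated array than on every untreated one, without passing that test. The other 6 genes overlapped between the groups, with ratios from 0.949 for *CYS4* to 1.27 for *STR2*. With limma and Benjamini-Hochberg adjustment over 5449 genes, 1 of the 10 was called higher and 0 lower at an adjusted p under 0.05, against 0.422% of all genes called higher and 0.514% called in either direction. Before adjustment over the genes, limma gave *MET2*, *MET6* and *SAM2* an unadjusted p under 0.05 as well, and 0 of the 10 were lower at that level. Of the 5449 genes, 275 were higher and 454 lower at that level. A pair of further criteria followed the methods of the study, namely a ratio of mean signals no lower than 1.7 and a p no higher than 0.05 from a Bayesian test that borrows variance from genes of like signal. By these, *STR3*, *MET2* and *MET6* were induced, 3 of 10 against 1.45% of all genes. The treated arrays lay above the untreated ones for 4 of 10 genes, against 5.58% of all genes, and below them for 0 of 10, against 12.8%. The median log2 change of the 10 was 0.21, and that of all genes −0.05.

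**Figure D1:**
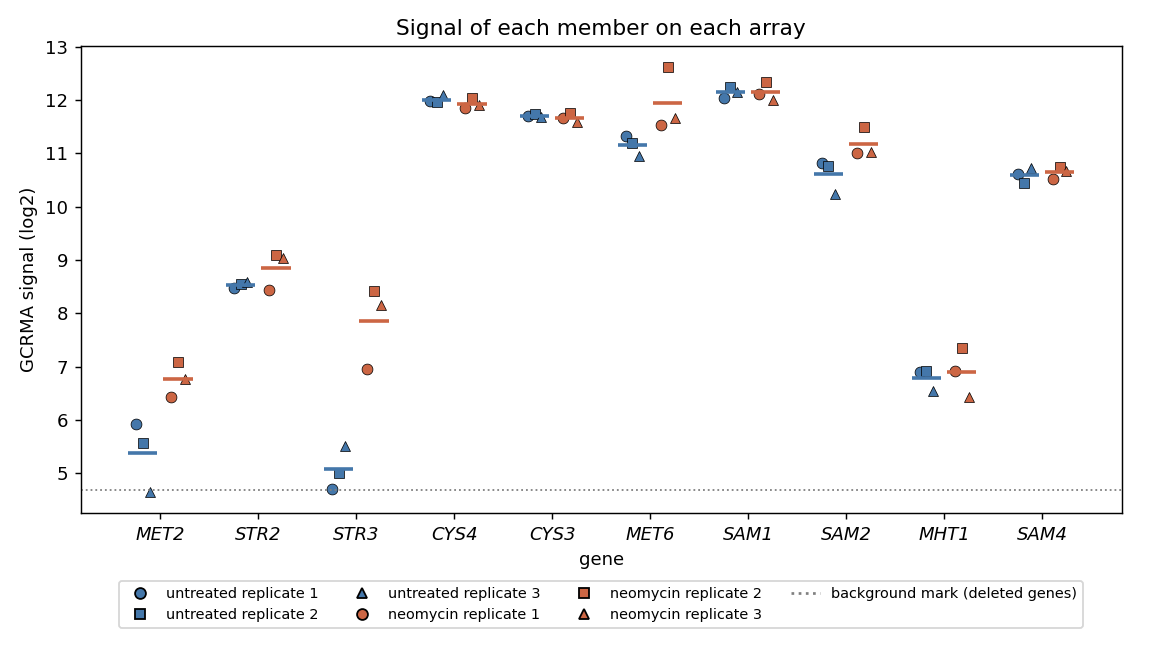
Each point is the log2 GCRMA signal of 1 gene on 1 array (y axis), with genes along the x axis in pathway order, untreated arrays in blue, neomycin arrays in orange, a symbol for each replicate number, bars at the group means (n = 3) and a dotted line at the background mark of 4.68. The groups separate for *MET2*, *STR3*, *MET6* and *SAM2* and overlap for the other 6 genes, and untreated *STR3* and *MET2* lie close to the mark.

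*MET2* (YNL277W) makes O-acetylhomoserine, the carbon skeleton that Met17 would take up. Its signal was 5.93, 5.57 and 4.64 in untreated replicates 1, 2 and 3 and 6.44, 7.09 and 6.77 in the treated ones. Every treated array thus lay above every untreated array, but the untreated arrays spread widely, and replicate 3 fell just below the background mark. The log2 change was 1.39 (SE 0.31, 95% interval 0.66 to 2.11, limma adjusted p = 0.128), the 13th highest of the 5449 genes. Leaving out neomycin replicate 1 gave 1.55 (limma adjusted p = 0.0584), and the change was 1.02 without untreated replicate 3 (limma adjusted p = 0.203), the lowest value with any array left out.

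*STR2* (YJR130C), the cystathionine gamma-synthase that joins cysteine to an activated homoserine, read 8.47, 8.54 and 8.59 without neomycin and 8.44, 9.09 and 9.04 with it. Neomycin replicates 2 and 3 stood above the narrow range of the untreated cultures and replicate 1 below it. The log2 change of 0.32 (SE 0.17, 95% interval −0.08 to 0.72, limma adjusted p = 0.478) therefore did not exceed the spread. Without neomycin replicate 1 it was 0.53 (limma adjusted p = 0.0563). By the ratio criteria *STR2* missed on its ratio, 1.27, with a Bayesian p of 0.0447.

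*STR3* (YGL184C) encodes the enzyme that splits cystathionine into homocysteine. Without neomycin its signal was 4.71, 5.002 and 5.51, near the background mark, and with neomycin it was 6.96, 8.42 and 8.16. The lowest treated array lay above the highest untreated array by more than the whole range of the untreated arrays. The mean went from 5.07 ± 0.403 (SD) to 7.85 ± 0.779, and the log2 change of 2.77 (SE 0.37, 95% interval 1.92 to 3.62, limma adjusted p = 0.0401) was the highest of the 5449 genes. Since the untreated signal is close to background, the ratio of 7.27 starts from a level that the array measures poorly.
The change of *STR3* on single treated arrays, relative to the untreated mean, was 1.89, 3.35 and 3.08 in replicates 1, 2 and 3. Without neomycin replicate 1 it averaged 3.22 (limma adjusted p = 0.00103). Leaving out neomycin replicate 2 or 3 or untreated replicate 1, 2 or 3 kept the change between 2.49 and 2.99 but ended the call, the limma adjusted p being 0.129, 0.168, 0.137, 0.115 and 0.105 in turn. With 3 arrays against 3 the exact permutation test gives p = 0.1 for *STR3*, as for *MET2*, *MET6* and *SAM2*, which is the smallest it can give.

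The enzymes of the opposite direction showed no such shift, nor did *STR2*, which acts in the same direction as *STR3*. *CYS4* (YGR155W), the cystathionine beta-synthase, read 11.97, 11.96 and 12.09 in untreated cells, against 11.84, 12.03 and 11.91 in treated ones. *CYS3* (YAL012W), the cystathionine gamma-lyase that releases cysteine, read 11.70, 11.73 and 11.69 and then 11.66, 11.76 and 11.58. For both genes the groups overlapped and the arrays of a group lay close together. Their log2 changes were −0.08 (95% interval −0.31 to 0.16) and −0.04 (95% interval −0.27 to 0.18), and the limma adjusted p was 0.817 and 0.903. On the scale of folds the intervals reach from 0.804 to 1.12 for *CYS4* and from 0.831 to 1.14 for *CYS3*, which leaves small changes undecided.

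*MET6* (YER091C), the cobalamin-independent methionine synthase, had untreated signals of 11.33, 11.19 and 10.96 and signals of 11.53, 12.61 and 11.65 with neomycin. The groups did not overlap, but the gap between them was small and neomycin replicate 2 lay far above the other treated cultures, which were 0.38 and 0.49 above the untreated mean against 1.45 for replicate 2. The log2 change was 0.77 (SE 0.27, 95% interval 0.15 to 1.39, limma adjusted p = 0.296) was 0.97 without neomycin replicate 1 (limma adjusted p = 0.125), and fell to 0.43 without neomycin replicate 2, where the ratio was 1.34 instead of 1.80. Without untreated replicate 3 the ratio was 1.69. In both of these cases *MET6* no longer met the ratio criteria.

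*SAM1* (YLR180W) and *SAM2* (YDR502C) encode closely similar S-adenosylmethionine synthetases, so that each probe set may also read RNA of the other gene, and the probe sequences were not used here. *SAM2* read 10.81, 10.76 and 10.24 without and 11.01, 11.50 and 11.02 with neomycin. *SAM1* read 12.03, 12.25 and 12.15 and then 12.11, 12.34 and 11.99. The treated arrays of *SAM2* all lay above its untreated arrays, the lowest of which was replicate 3, while those of *SAM1* fell among them. The log2 changes were 0.57 (SE 0.19, 95% interval 0.13 to 1.02, limma adjusted p = 0.286, and 0.66 without neomycin replicate 1, limma adjusted p = 0.197) for *SAM2* and 0.00 (SE 0.12, 95% interval −0.28 to 0.29, limma adjusted p = 0.998) for *SAM1*. The change of *SAM2* fell to 0.39 without untreated replicate 3 (limma adjusted p = 0.686) and to 0.41 without neomycin replicate 2 (limma adjusted p = 0.347).

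The homocysteine methyltransferases *MHT1* (YLL062C), which uses S-methylmethionine, and *SAM4* (YPL273W), which uses S-adenosylmethionine, are also a related pair. *MHT1* read 6.90, 6.91 and 6.55 without and 6.91, 7.35 and 6.42 with neomycin, so that treated cultures gave both its highest and its lowest signal. *SAM4* read 10.61, 10.45 and 10.72 and then 10.51, 10.74 and 10.67. Neither gene separated the groups, with log2 changes of 0.11 (95% interval −0.41 to 0.63, limma adjusted p = 0.887) and 0.05 (95% interval −0.22 to 0.32, limma adjusted p = 0.913). The interval of *MHT1* is too wide to tell a fall to 0.751 of the signal from a rise of 1.55-fold. In the gene order of RefSeq, each of these genes lies next to the gene of a permease for its own methyl donor, *MMP1* beside *MHT1* and *SAM3* beside *SAM4*. The log2 changes of these neighbours were 0.43 and 0.39 (limma adjusted p = 0.364 and 0.370), so neither passed.

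**Figure D2:**
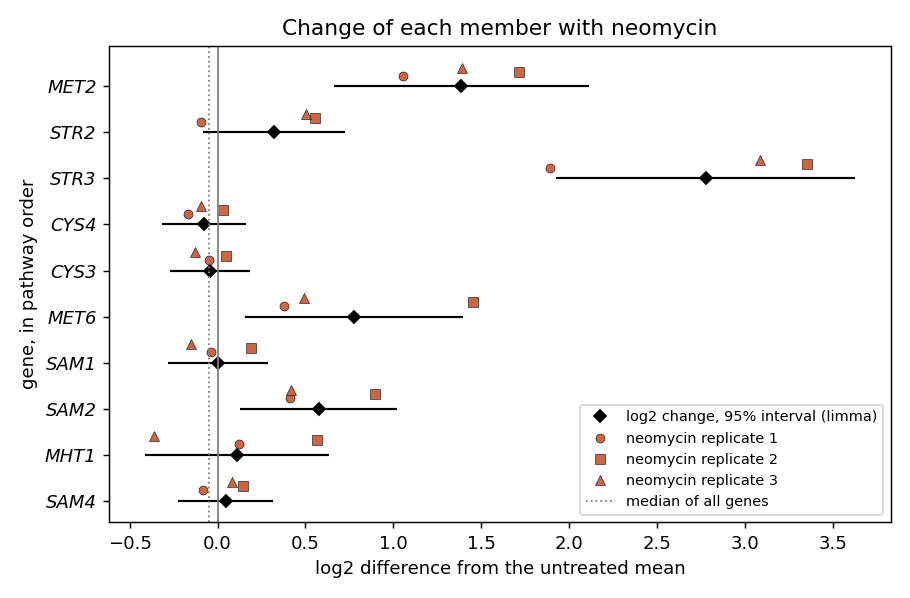
Black diamonds give the log2 change of each gene (x axis, neomycin minus untreated) with limma's 95% interval, orange symbols each treated array minus the untreated mean, and the dotted line the median of all genes at −0.05. The intervals of *STR3*, *MET2*, *MET6* and *SAM2* lie above 0 before any adjustment for the number of genes tested. The square of neomycin replicate 2 is the rightmost of the orange symbols in each row.

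Whether neighbouring steps or sister enzymes responded unequally was examined within arrays, by taking on each array the difference between the signals of a pair of genes and comparing it between conditions. Levels of different probe sets cannot be set against each other, but the change of their difference can. Of 5 pairs, 3 had treated arrays entirely on one side of the untreated ones, but how often other pairs of genes do so was not computed. The pairs were chosen with earlier results of these data known, and the differences with *STR3* come mainly from its own change of 2.77. The change of *STR3* exceeded that of *STR2* by 2.45 (95% interval 1.58 to 3.33, from the pooled SD), with treated arrays at 1.98, 2.80 and 2.58 and untreated arrays from −0.30 to 0.38 around their mean. It exceeded that of *CYS4* by 2.85 (95% interval 1.61 to 4.09), with treated arrays from 2.05 to 3.32.
Within the S-adenosylmethionine synthetases, the change of *SAM2* exceeded that of *SAM1* by 0.57 (95% interval −0.02 to 1.17), with treated arrays at 0.45, 0.70 and 0.57 and untreated arrays at 0.32, 0.05 and −0.37. For these 3 pairs the exact 2-sided permutation test gave p = 0.1, the smallest possible with 3 arrays against 3, and p = 0.167 after adjustment over the 5 pairs, so none can pass. Without neomycin replicate 1 the 3 differences, in the same order, were 2.69, 3.25 and 0.64, and without neomycin replicate 2 they were 2.28, 2.62 and 0.51. Leaving out untreated replicate 3 brought the difference of *SAM2* and *SAM1* to 0.39. The changes of *CYS4* and *CYS3* differed by −0.03 (95% interval −0.22 to 0.16, exact permutation p = 0.7) and those of *SAM4* and *MHT1* by −0.06 (95% interval −0.96 to 0.83, exact permutation p = 0.8). The former interval is narrow and the latter wide, so that a difference of close to a doubling between *SAM4* and *MHT1* would not have been seen.

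**Figure D3:**
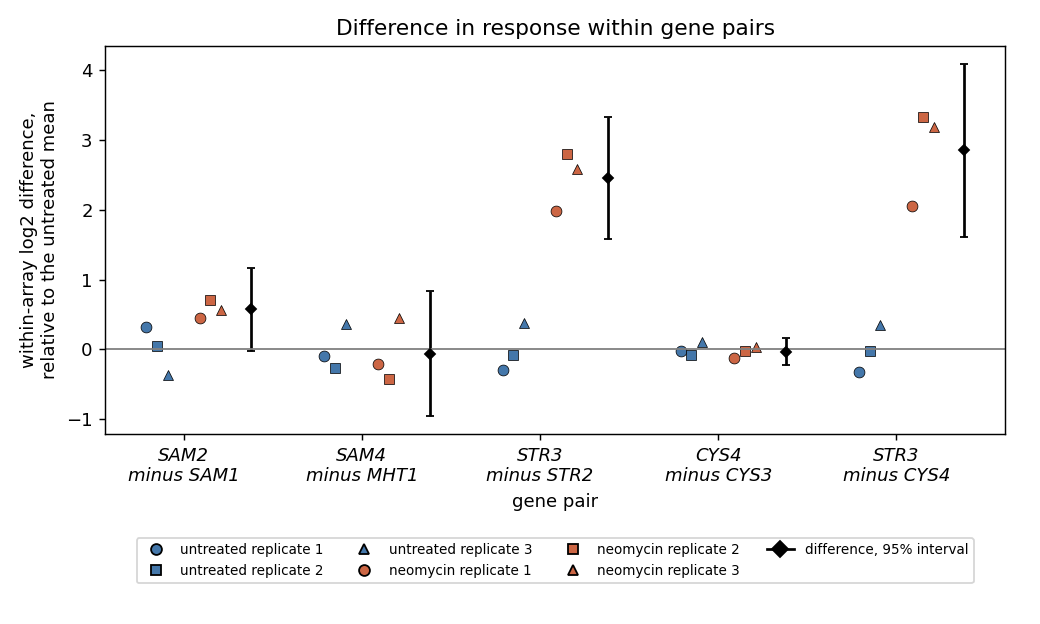
The y axis gives the within-array log2 difference between the genes of each pair (x axis), set to 0 at the untreated mean, for untreated arrays in blue and neomycin arrays in orange, with black diamonds for the difference in change and its 95% interval from the pooled SD. The treated arrays stand apart for *STR3* against *STR2* and against *CYS4*, stand just above the untreated arrays for *SAM2* against *SAM1*, and mix with them for the other pairs.

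Across the treated cultures the 10 genes shared the culture of their highest signal. All 10 had their highest treated signal in neomycin replicate 2, where 52.2% of all genes have theirs, and 7 of 10 had their lowest in neomycin replicate 1, where 51.2% of all genes have theirs. With each array centred on its median, 9 of 10 were highest in replicate 2, against 40.2% of all genes. The median of the 10 genes relative to their untreated means was 0.04, 0.56 and 0.25 in neomycin replicates 1, 2 and 3, and −0.01 to 0.03 in the untreated cultures, while that of all genes was −0.11, 0.03 and −0.05 on the treated arrays. On neomycin replicate 2, 9 of the 10 genes lay above all untreated arrays, against 34.2% of all genes, and on each of replicates 1 and 3, 5 did, against 13.2% and 23.0% of all genes. Leaving out neomycin replicate 1 gave the 10 a median change of 0.32, and leaving out replicate 2 gave 0.10. The labels give no batch or scan time, and the origin of the difference between the cultures was not tested.

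The genes around these steps were taken from 8 lists with 47 genes. Of these, 46 were measured here, all but *YLL058W*, a homolog of the cystathionine enzymes. Among the 46 is *MET17*, which the strain lacks and which reads background only. The lists were written with earlier results of these arrays known. Over these 46 genes the median log2 change was 0.07, 1 was called higher and 0 lower by limma, against 0.422% of all genes called higher, and 10 lay above and 4 below the untreated arrays without overlap, against 5.58% and 12.8% of all genes. Without *MET17* these counts stay the same over 45 genes, and the median is 0.06. Without neomycin replicate 1 limma called 6 of the 46 higher, against 2.18% of all genes, namely *MET14*, *MET10*, *MET3*, *HOM3*, *MET13* and *MET28*. Without any 1 of the other 5 arrays it called 0. Replicate 1 was singled out for its weak responses, so these 6 calls add no support of their own. Sulfate assimilation, which delivers the sulfide that these cells cannot fix through Met17, had the most genes whose treated arrays all lay above the untreated ones, 5 of 11, with a median of 0.34, or 5 of 10 and 0.39 without *MET17*. *MET14*, the adenylylsulfate kinase, rose 1.88-fold (log2 change 0.92, limma adjusted p = 0.0421), from 8.47, 8.68 and 8.25 to 9.25, 9.50 and 9.42. Its call held without neomycin replicate 1 (limma adjusted p = 0.0171) and ended without any 1 of the other 5 arrays, where the limma adjusted p ran from 0.0898 to 0.181. *MET10*, a subunit of sulfite reductase, *MET3*, the ATP sulfurylase, *MET16*, the phosphoadenylylsulfate reductase, and *MET1*, which acts in making the siroheme of sulfite reductase, had changes of 0.84, 0.73, 0.47 and 0.45, and their limma adjusted p-values, 0.083 to 0.203, missed the threshold. *MET10* met the ratio criteria with a ratio of 1.83, as did *MET14*. Without neomycin replicate 1 the change of *MET10* was 1.07 (limma adjusted p = 0.00375) and that of *MET3* was 0.83 (limma adjusted p = 0.0298). *MET8*, another siroheme enzyme and named here because of its value, was the 1 gene of this list whose treated arrays all lay below the untreated ones, with a change of −0.44 (limma adjusted p = 0.296). Unlike *MET6*, *MET14* and *MET16* had treated arrays that lay close together, at 7.60, 7.63 and 7.70 for *MET16*.

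Upstream of *MET2*, *HOM3*, the aspartate kinase that opens the path to homoserine, read 10.67, 10.54 and 10.43 without and 10.93, 11.35 and 11.16 with neomycin (log2 change 0.60, limma adjusted p = 0.120, and 0.71 without neomycin replicate 1, limma adjusted p = 0.0328), while *HOM2*, *HOM6* and *THR1* overlapped. *MET13*, a methylenetetrahydrofolate reductase that makes the methyl donor of Met6, read 6.61, 6.80 and 6.47 and then 6.82, 7.43 and 7.41 (0.60, limma adjusted p = 0.242), the treated arrays being separated from the untreated ones by a narrow gap at replicate 1. Without that replicate the change was 0.80 (limma adjusted p = 0.0261). The other 4 genes of that list overlapped.
Among 7 regulators, *MET28*, a cofactor of the activator Met4, read 5.13, 5.01 and 4.67 and then 5.15, 6.55 and 6.08 (0.99, limma adjusted p = 0.274), so that neomycin replicate 1 lay barely above the untreated cultures and close to background. It met the ratio criteria with a ratio of 2.12, and its change without neomycin replicate 1 was 1.38 (limma adjusted p = 0.0116). *MET4*, *MET31*, *MET32*, *CBF1*, *MET30* and *GCN4*, the activator of amino acid synthesis genes, overlapped between the groups, with changes from −0.20 to 0.38.

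Of 6 permeases for methionine, S-methylmethionine and S-adenosylmethionine, *MUP1*, the high-affinity methionine permease, and *AGP1*, a broad amino acid permease, lay above the untreated arrays with changes of 0.42 and 0.59 (limma adjusted p = 0.296 and 0.298), and the median of the list was 0.41. For *AGP1* the gap was narrow at neomycin replicate 1, and the treated arrays stood 0.16, 1.05 and 0.55 above the untreated mean in replicates 1, 2 and 3. Of 8 genes of S-adenosylhomocysteine recycling and methionine salvage, 0 lay above and 3 below, where 5.58% and 12.8% of all genes did. These were *SPE2*, the S-adenosylmethionine decarboxylase of polyamine synthesis, with a change of −0.40, *MEU1*, the methylthioadenosine phosphorylase, with −0.19, and *MDE1*, a dehydratase of methionine salvage, with −0.17, and their limma adjusted p-values of 0.260, 0.487 and 0.494 missed the threshold. *SAH1*, which cleaves S-adenosylhomocysteine, had a change of 0.00. The genes of glutathione synthesis and cysteine use, *GSH1*, *GSH2* and *IRC7*, had changes of −0.04, −0.22 and −0.40 and overlapped between the groups, as did the homologs *YML082W* and *YHR112C*. Differences between these lists were not tested.

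**Figure D4:**
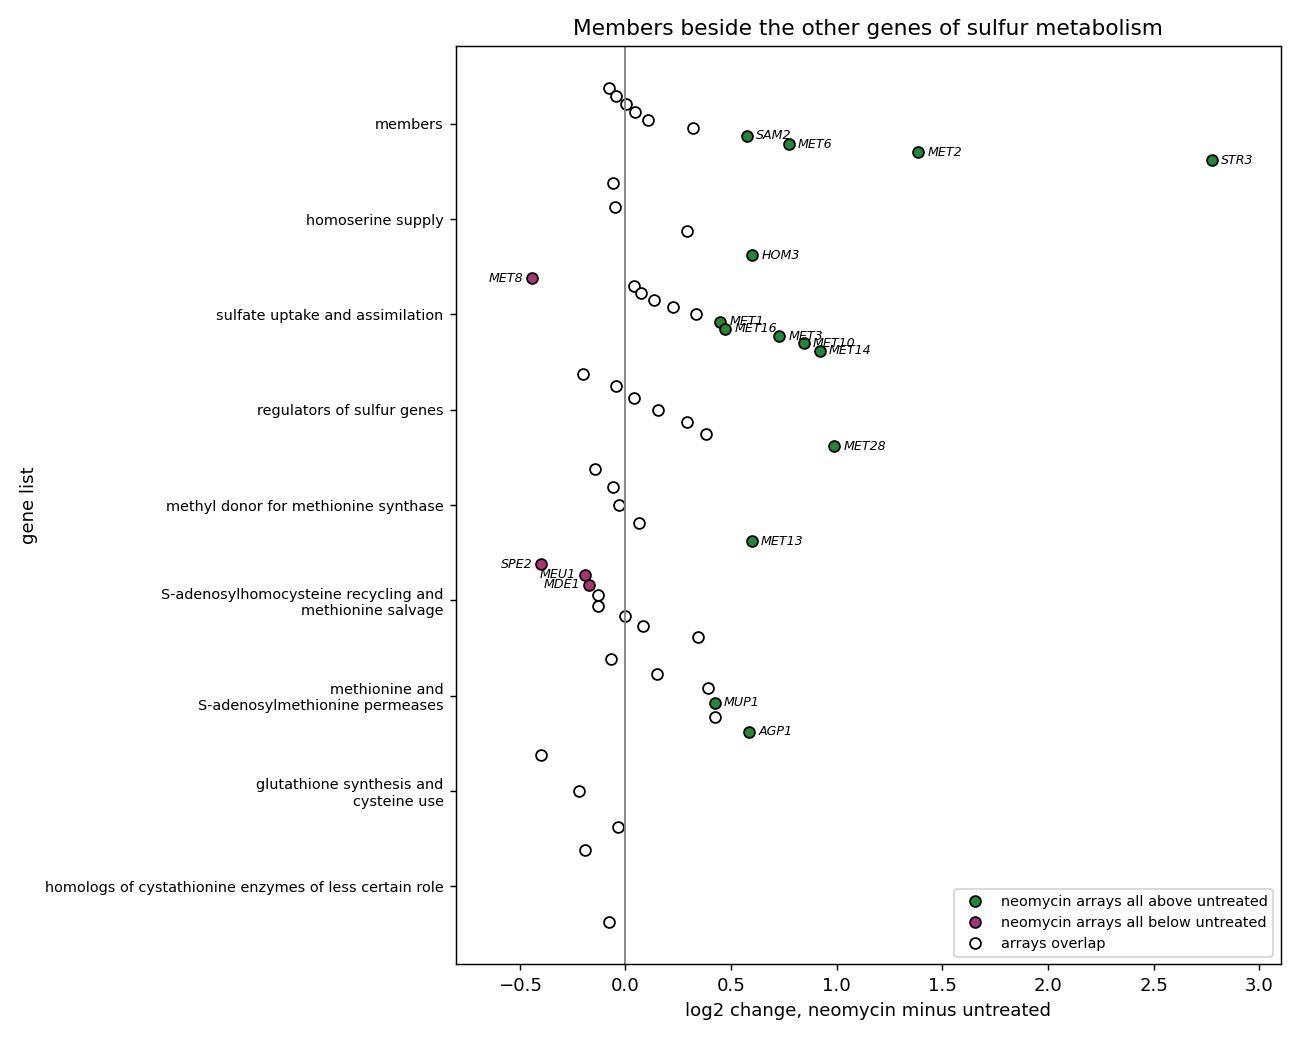
Each point is the log2 change of 1 gene (x axis, neomycin minus untreated), in rows for the 10 genes and for the 8 lists around them, filled in green where all treated arrays lay above the untreated ones, in purple where all lay below and in white where they overlapped. Green points are 4 of 10 in the top row and 5 of 11 in sulfate assimilation, and purple points are 3 of 8 in the row of S-adenosylhomocysteine recycling and methionine salvage, against 5.58% of all genes above and 12.8% below.

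The genes whose 6 values, relative to their own untreated mean, lay closest to those of *STR3* were *ARG1*, *ARG3*, *BAG7*, *PIR3* and *GSC2*, with root mean square differences of 0.332, 0.549, 0.616, 0.723 and 0.736 on the log2 scale. *ARG1* and *ARG3* are enzymes of arginine synthesis, *BAG7* encodes a GTPase-activating protein of Rho1, *PIR3* a cell wall protein and *GSC2* a glucan synthase subunit. *ARG1* had changes of 2.07, 3.04 and 3.11 on the treated arrays, beside 1.89, 3.35 and 3.08 for *STR3*. None of the other 9 genes described here was among the 5. The measure favours genes with large changes, and it rests on 6 arrays.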

How the data were processed

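Per the labels and the study's methods, RNA of 6 cultures was hybridised to Affymetrix Yeast Genome 2.0 arrays, and the authors converted the intensities with GCRMA (background adjustment, normalisation between arrays, summary over probes), of version not given in the sources used here. The deposited values are log2 signals from 2.22 to 14.31 over 5716 probe sets, and no earlier step was repeated. The annotation names a gene for 5498 probe sets. Where 47 genes had several, the one with the highest mean was taken.

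The whole table of 5449 genes entered 1 limma model (version 3.58.1 under R 4.3.3) with moderated variances, 4.03 prior degrees of freedom and no intensity trend, 2-sided, with Benjamini-Hochberg adjustment and a threshold of 0.05. A log2 change is the neomycin mean minus the untreated mean, and a ratio is that of the arithmetic mean signals. The regularised test follows Cyber-T with a window of 101 genes and a confidence of 10, settings chosen here. Scripts were tested on simulated data. Alternatives covered scaling, filtering, probe set choice, the variance model, the replicate number and leaving out each array.

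The 10 genes, the lists and the pairs were chosen with earlier results of these data known. Besides the 10 genes, those named were the called genes of each list, up to 4 of each with the largest change among genes that do not overlap, the genes deleted in the strain and the 5 nearest to *STR3*. The lists' other genes are named as members of their list, and those with values beyond this rule were added after their values were seen. The number of arrays limits the precision, as does the nearness of dim genes to background. Counts over the lists without *MET17* and with each array left out were added after seeing the data. No sequences were used here.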

Additional observations from a re-analysis of the deposited data

How the results depend on the processing

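Of the 10 genes, limma called 1, *STR3*, after renewed quantile normalisation, centring on array medians, averaging a gene's probe sets, keeping every probe set, an intensity trend or a robust prior, and at an adjusted p under 0.1. It called 0 with the dimmest 0.25 of genes left out, which removes *STR3*, *MET2* and *MHT1* from the fit, and 0 to 1 with single arrays left out, where 2 to 5 had an unadjusted p under 0.05. Cyber-T p-values with Benjamini-Hochberg adjustment called 3, *STR3*, *MET2* and *MET6*. The ratio criteria gave these 3 under all alternatives except without these dim genes (1, *MET6*) and without untreated replicate 3 or neomycin replicate 2 (2, *STR3* and *MET2*).

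The replicate numbers gave no consistent pairing of the cultures. Across genes, the deviations of same-numbered arrays from their group means correlated at −0.000302, −0.376 and 0.443 for replicates 1, 2 and 3. Under unlike numbers, untreated replicate 1 correlated at 0.396 with neomycin replicate 2, and untreated replicate 2 at 0.398 with neomycin replicate 1. All other correlations between the groups ran from −0.432 to 0.000663. Whether the cultures are matched under unlike numbers was not tested, and no fit took such a match into account. With the replicate number as a block the adjusted p of *STR3* was 0.0638, so that limma called 0 of the 10 genes and 0 of all genes (4 and 662 at an unadjusted p under 0.05). The blocked fit also ended the call of *MET14* (limma adjusted p = 0.104), and the ratio criteria still gave 3 of the 10 genes.

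Over all genes limma called 28, and 55 after quantile normalisation, 51 after centring, 47 without these dim genes, 62 with an intensity trend, 82 at an adjusted p under 0.1, 156 by adjusted Cyber-T p-values, 142 without neomycin replicate 1 and 0 to 2 without any other array (401 to 820 at an unadjusted p under 0.05). The ratio criteria called 99, and 55 without these dim genes and 153 without neomycin replicate 1.

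With single arrays left out, the change of *SAM1* ran from −0.095 to 0.077, of *MHT1* from −0.12 to 0.35 and of *SAM4* from −0.026 to 0.11, and the difference in change of *SAM4* and *MHT1* from −0.32 to 0.12 and of *CYS4* and *CYS3* from −0.072 to 0.017, so that none of these has a settled sign. No other change of the 10 genes or difference between pairs turned its sign under the alternatives run. *MET2*, *STR3* and the regulator *MET28* have untreated signals close to background, which limits how well their ratios are known.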
